A study of Mus musculus with 20 samples.

Results

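Olfactory receptor gene regions are described here as the autosomal genes of the mm10 mouse annotation whose symbol is Olfr followed by a number, each with 1000 bp on either side. Of 1420 such genes, 1104 were annotated as protein coding and 316 as pseudogenes or other classes. The members are the CpG positions that the methylation files list inside these regions. There were 329 positions listed at both ages studied, of 1132579 in all, and they fell in 91 genes. At 13 months alone 334 of 1151198 listed positions were members, and at 3 months 365 of 1234455. At either age 100 genes held a listed position. Chromosome 17, with 37 positions in 4 genes, is kept apart from the other autosomes, with 292 positions in 87 genes.

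Methylation came from reduced representation bisulfite sequencing, an assay that cuts DNA with an enzyme and reads the CpG-rich fragments after a chemical conversion that marks unmethylated cytosines. The starting material was homogenised mouse brain after a selection step for microglia, the brain's own macrophages. All mice had the B6D2F1/J background, which derives from a cross of C57BL/6J and DBA/2J. HEM mice carried full-length human wild-type α-synuclein, known for its aggregates in Parkinson disease, as an overexpressed transgene on the X chromosome under the murine Thy-1 promoter, which is best known for driving expression in neurons, and WT mice served as controls without it. At an age of 13 months there were 8 HEM and 4 WT libraries, and at 3 months each genotype had 4. The series text counts 1 WT library fewer at 3 months than the labels do. Each value is the percent of methylated reads at a position, averaged over all the DNA in a homogenate, so a change in the mixture of cells and a change within cells cannot be told apart.

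Olfactory receptors are G protein-coupled receptors that bind odorants on sensory neurons of the nose, and each such neuron expresses a single receptor gene chosen from the family. The genes sit in clusters on many chromosomes, lack CpG islands as a rule, and are mostly silent outside the olfactory epithelium. CpG islands are the CpG-dense stretches at the promoters of many other genes, and they usually carry little methylation, whereas scattered CpGs in the rest of the genome are usually methylated.

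Sequence windows at the annotated gene starts show how few CpGs this family offers to the assay. RefSeq promoter windows of 300 bases on the GRCm38.p6 build were matched for 938 olfactory receptor genes, which gave 942 windows. The median window held 1 CG and 33.5% held none, whereas over all 32851 promoter windows the median was 7 and 5.43% held none. Median GC content was 35% in the olfactory receptor windows and 52.7% in all windows. The letters CCGG, the site of the enzyme MspI that is commonly used for this assay, were present in 4.88% of olfactory receptor windows and in 52.8% of all windows. A listed position lay in 9 olfactory receptor windows (0.955%), against 38.1% of all windows.

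Those 9 windows held 15 listed CGs, and 10 of the 15 were inside CCGG. Of them, 4 are printed because they show the range from a window with a single CG to the window with the most listed positions. They run 5′ to 3′ along the gene's strand, and capitals mark the CGs with a listed methylation value. In Olfr517, Olfr1396 and Olfr731 the annotated gene begins with the letters ATG, those of a start codon. A window therefore need not hold the site where transcription begins. Olfr750 lies on the minus strand at chr14:51071393-51071692, Olfr517 on the minus strand at chr7:108869103-108869402, Olfr1396 on the minus strand at chr11:49113708-49114007, and Olfr731 on the minus strand at chr14:50238834-50239133.
Olfr750: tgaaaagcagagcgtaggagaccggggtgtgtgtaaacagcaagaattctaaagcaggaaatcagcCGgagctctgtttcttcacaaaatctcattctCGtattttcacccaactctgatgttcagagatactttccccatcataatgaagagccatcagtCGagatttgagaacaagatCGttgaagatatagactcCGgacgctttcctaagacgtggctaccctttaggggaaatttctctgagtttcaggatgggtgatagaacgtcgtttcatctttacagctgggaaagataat
Olfr517: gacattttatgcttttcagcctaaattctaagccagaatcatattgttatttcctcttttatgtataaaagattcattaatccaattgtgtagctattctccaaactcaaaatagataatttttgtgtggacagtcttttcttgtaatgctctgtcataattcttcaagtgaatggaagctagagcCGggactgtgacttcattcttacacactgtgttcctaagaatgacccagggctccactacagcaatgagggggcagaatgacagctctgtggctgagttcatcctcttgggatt
Olfr1396: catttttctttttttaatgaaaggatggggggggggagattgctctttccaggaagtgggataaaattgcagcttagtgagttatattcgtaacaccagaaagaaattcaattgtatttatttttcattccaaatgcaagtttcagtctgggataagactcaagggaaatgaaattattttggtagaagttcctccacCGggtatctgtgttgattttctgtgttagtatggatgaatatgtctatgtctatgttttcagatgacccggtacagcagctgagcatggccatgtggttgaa
Olfr731: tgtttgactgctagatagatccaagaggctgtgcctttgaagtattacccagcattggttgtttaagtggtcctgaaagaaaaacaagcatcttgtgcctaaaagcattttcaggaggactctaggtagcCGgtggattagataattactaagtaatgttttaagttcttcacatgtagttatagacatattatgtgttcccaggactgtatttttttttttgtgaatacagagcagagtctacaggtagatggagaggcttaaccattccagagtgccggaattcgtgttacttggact

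The single CG of the Olfr517 window had a mean methylation of 48.2% over the 20 libraries, with single libraries from 34.4% to 63.0%, while the gene's other listed position, in the gene body, averaged 87.3%. The CG marked in Olfr1396 averaged 52.9% (23.9% to 71.1%), and the one in Olfr731 averaged 93.9% (76.6% to 100%). The 5 marked CGs of Olfr750 had means of 65.2%, 58.3%, 53.0%, 78.5% and 84.0% in the order of the printed sequence, that is, from far to near the annotated start. Methylation in these windows was therefore neither uniformly high nor near 0. Over the 12 positions listed at both ages in 7 of the windows the mean was 69.7%, and over the 280 positions outside such windows it was 79.7% (chromosome 17 left out of both).

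Motifs linked to olfactory receptor gene control were searched on both strands of the same windows. CCCNNGGG, the core of the site of Ebf transcription factors, was present in 3.08% of olfactory receptor windows and 13.7% of all windows. TAATTA, a homeodomain site of the kind that Lhx2 binds, was present in 18.7% and 5.29%. TAATTA holds only A and T, and median GC content was 35% in the olfactory receptor windows against 52.7% in all windows. The shares were not adjusted for this difference in composition. CCCNNGGG can contain CCGG and TAATTA cannot, and a match describes letters only.

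Coverage of the family was sparse. A listed position was present at both ages in 6.41% of the 1420 genes, and the share was nearly equal for protein-coding members (71 genes, 6.43%) and pseudogenes or other classes (20 genes, 6.33%). Among 19557 other protein-coding autosomal genes, 84.8% had one. Of the 91 genes, 25 held 1 position, 17 held 2 and 49 held at least 3, with a median of 3 and a maximum of 18. Grouped into clusters wherever neighbouring genes lay at most 1000000 bp apart, the family formed 63 clusters, of which 28 held a listed position and 18 held at least 5.

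Most listed positions were heavily methylated. Without chromosome 17 the mean over the 292 positions was 79.3% (SD 1.02 over 20 libraries) and the median position stood at 88.2%. Of these positions 195 had a mean above 80%, 84 lay between 20% and 80%, and 13 lay below 20%. On chromosome 17 the mean over 37 positions was 60.9% (SD 1.70), and the distribution was split, with 21 positions above 80%, 5 between and 11 below 20%. The lower mean on chromosome 17 came with a single gene, Olfr94, which held all 11 of the low positions. Without the pseudogenes Olfr762-ps1 and Olfr754-ps1 the chromosome 17 means of the 4 groups were between 28.9% and 33.4%.

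The contrast with CpG-dense sequence was wide. Tiles of 1000 bp holding at least 20 listed positions, used in place of CpG islands because no island annotation was used here, averaged 2.96% over 520748 positions, and 96.4% of those positions were below 20%. All other annotated genes averaged 25.003%, with 67.9% of positions below 20%, against 4.45% in olfactory receptor regions. The vomeronasal receptor genes, which encode pheromone receptors and are likewise clustered and restricted to sensory neurons, lay between, with a mean of 58.2% over 221 positions and 28.1% below 20%. Zfp genes, a large family of zinc finger genes, averaged 23.9%. The ranges over libraries did not overlap between the olfactory receptor regions (76.4% to 80.9%), the vomeronasal regions (56.0% to 60.4%) and the other genes (23.7% to 26.0%). These ranges give the spread between libraries and not that between the genes listed, and differences between families were not tested.

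**Figure D1:**
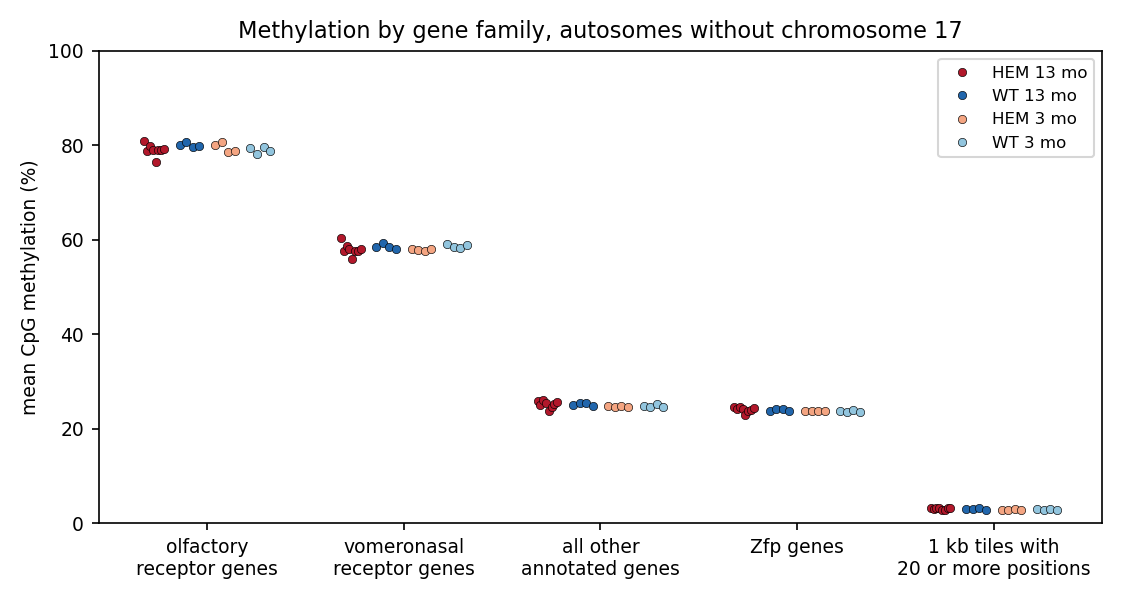
Mean CpG methylation (percent, y axis) of each library, 1 point per library and coloured by group, for 5 sets of positions on autosomes without chromosome 17 (x axis). The olfactory receptor points sit between 76.4% and 80.9% in all 4 groups, and the dense tiles between 2.75% and 3.20%.

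Local density of listed positions differed between the families. A member had a median of 3.5 other listed positions within 500 bp, and a position in other genes had 32. No member outside chromosome 17 had 20 or more such neighbours, whereas 61.3% of positions in other genes did, with a mean of 3.05%. At equal density the olfactory receptor positions had the higher mean in each of 3 classes. With 0 to 4 neighbours the 187 members averaged 81.1% and other genes 72.0%. With 5 to 9 neighbours the 88 members averaged 73.3% and other genes 62.5%, and with 10 to 19 neighbours the 17 members, all in 2 genes, averaged 91.2% and other genes 38.1%.

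Means also differed by position within the region and by gene class. Outside chromosome 17, positions inside the annotated gene averaged 82.0% (204 positions, 64 genes), those in the upstream flank 66.4% (20 positions, 11 genes) and those in the downstream flank 74.2% (15 positions, 10 genes). Another 53 positions, at a mean of 75.2%, lay in flanks of genes whose strand was not in the reference tables used. Of these, 9 lay below 20%, and their median of 92.6% was above the median of 88.4% inside the annotated gene. The order of gene and flank thus depended on the flank class and on the use of means. Pseudogenes and other classes averaged 86.6% (62 positions, median 92.3%) and protein-coding genes 77.4% (230 positions, median 86.4%). These are descriptions over positions that share genes and fragments, and no test was made of them.

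The genes with the most positions were Olfr762-ps1 on chromosome 17 (18 positions, mean 89.5%, SD 1.42 over 20 libraries), Olfr1319-ps1 on chromosome 2 (14 positions, 92.5%, SD 1.47), Olfr1358 on chromosome 10 (12 positions, 59.0%, SD 4.88), Olfr94 on chromosome 17 (11 positions), and Olfr71 and Olfr1342 on chromosome 4 (9 positions each, 84.4% and 48.8%). Among genes with at least 3 positions the highest means were in Olfr543 (95.8%), Olfr1344 (95.1%) and Olfr1300-ps1 (95.05%). The lowest were in Olfr94 (0.847%), Olfr1033 (1.25%) and Olfr658 (37.1%). The symbols ending in ps are pseudogenes, copies that do not encode a working receptor.

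By cluster, levels ranged from 28.0% to above 90%. The large chromosome 2 cluster from 85330967 to 90401674 has 293 annotated genes, of which 4 held 13 positions, and its mean of 28.0% was the lowest. Of these positions 7 lay in Olfr1033, at a mean of 1.25%. The other genes were Olfr52 (4 positions, 51.4%), Olfr1156 (1 position, 54.3%) and Olfr1254 (1 position, 95.6%). Low means were also found for 4 positions on chromosome 2 from 36285060 to 37332732 (51.8%), 11 positions on chromosome 4 from 118665519 to 118934840 (54.8%), and 12 positions of Olfr1358 on chromosome 10 (59.0%). The highest mean of a cluster with at least 5 positions was on chromosome 7 from 6439902 to 6570919 (9 positions, 94.2%), followed by chromosome 2 from 111230853 to 112167982 (17 positions, 92.9%). The chromosome 7 cluster from 102476773 to 105369317, the locus of the class I receptors that resemble those of fish, held the most positions, 42 in 13 of its 158 genes, and averaged 81.4%. Among clusters with at least 5 positions, the best covered by genes was on chromosome 15 from 98186011 to 98499471, with 36 positions in 7 of 12 genes and a mean of 86.5%. The 4 low cluster means came from positions in 1 to 4 genes each.

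**Figure D2:**
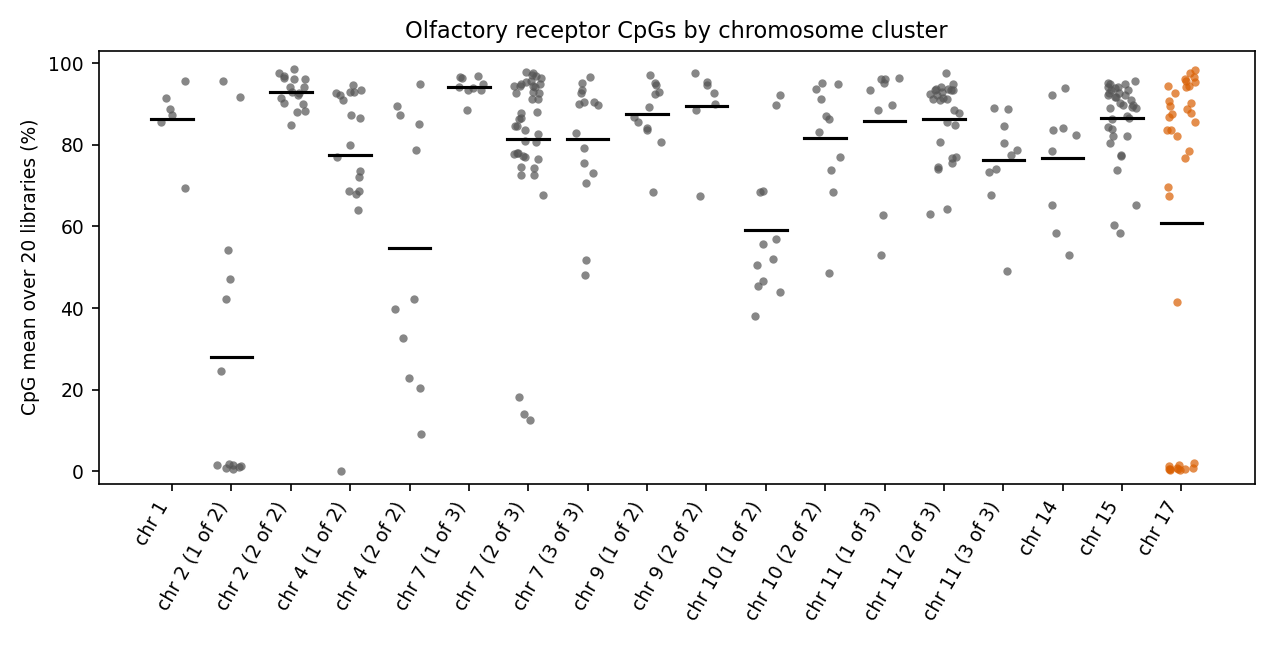
Mean methylation of each CpG position over 20 libraries (percent, y axis) in the 18 olfactory receptor clusters with at least 5 positions (x axis, in genome order, clusters of a chromosome numbered among those shown). Points are positions, bars are cluster means, and chromosome 17 is in orange, where 11 points lie below 20% and 21 above 80%.

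Unmethylated stretches were few, and 2 genes held 18 of the 24 positions with a mean below 20%. In Olfr94, a receptor gene on the minus strand at chr17:37196806-37197966, all 11 positions lay inside the gene within 112 bp, from 37197199 to 37197310. Their joint mean was 0.847%, with libraries from 0.243% to 1.53%, and single positions averaged from 0.243% to 1.98%. The group means were 1.03% ± 0.285 (SD, n = 8) in HEM and 0.868% ± 0.329 (n = 4) in WT at 13 months, and 0.751% ± 0.521 (n = 4) in HEM and 0.559% ± 0.113 (n = 4) in WT at 3 months. All 4 groups overlapped. The stretch starts 393 bp from the gene's lower coordinate and ends 656 bp from its upper one, away from both ends of the annotated gene.

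In Olfr1033 on chromosome 2, 7 positions from 86020534 to 86020643 straddled the gene's lower coordinate of 86020640. They averaged 1.25%, with libraries from 0% to 3.23%, and group means ran from 0.909% ± 0.913 (SD, n = 4) in WT at 3 months to 1.67% ± 1.39 (n = 4) in WT at 13 months. The groups overlapped. Another 2 positions of Olfr1033, at 86023539 and 86023572, were listed at 3 months only and were not low. The first stood at 93.3% ± 3.62 (SD, n = 4) in HEM and 94.1% ± 4.75 (n = 4) in WT, and the second at 47.4% ± 4.36 and 59.9% ± 6.73, with overlapping ranges at both. With them the 3-month region mean of Olfr1033 was 16.6% in HEM and 17.8% in WT (unadjusted p = 0.273, adjusted p = 0.9999 in limma). The positions of both stretches, with means below 5%, were not tested singly.

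Other regions held both low and high positions, 167 bp apart in Olfr658, 2981 bp apart in Olfr1342 and 15040 bp apart in Olfr1358. In the flank of Olfr658 on chromosome 7, inside the overlapping pseudogene Usp17le-ps, 3 positions from 104647320 to 104647343 averaged 15.0% and 2 positions from 104647510 to 104647522 averaged 70.1%. In Olfr1342 on chromosome 4, 3 positions from 118689564 to 118689656 averaged 90.6% and 6 positions from 118692637 to 118692840 averaged 27.8%. In Olfr1358, the 4 positions from 78505200 to 78505284, inside the overlapping noncoding RNA gene Gm47944, averaged 79.7% and the 8 positions from 78520324 to 78520410 averaged 48.6%. The pseudogene Olfr269-ps1 held 1 position on chromosome 4, at 43768069, that was listed at 0% in all 20 libraries, while its other 5 positions averaged 77.5%.

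**Figure D3:**
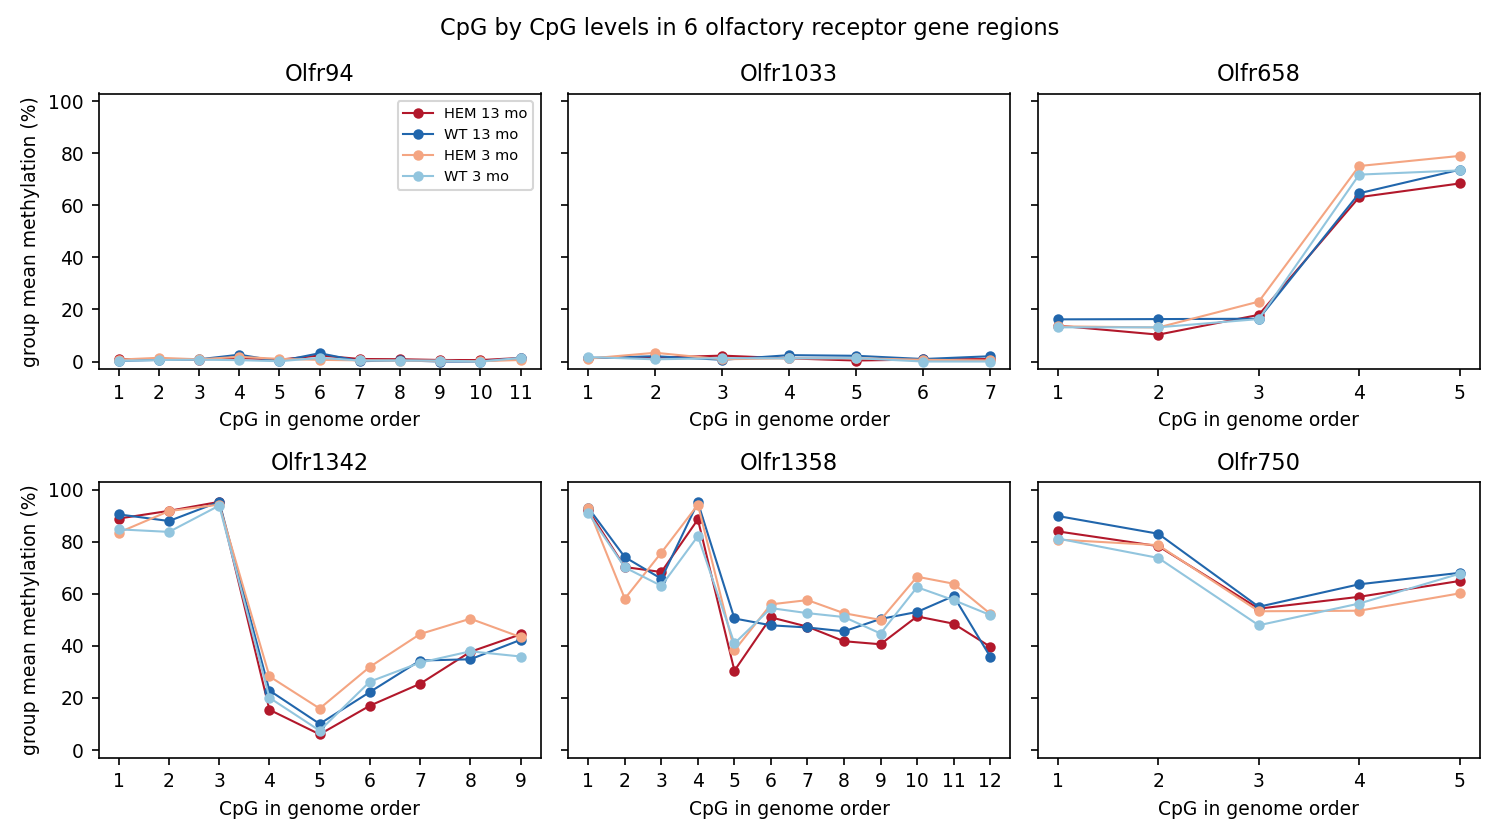
Group mean methylation (percent, y axis) at each listed CpG position in genome order (x axis) of 6 olfactory receptor gene regions, 1 line per group. Olfr94 and Olfr1033 stay below 5% throughout, Olfr658 and Olfr1342 hold low and high positions, with the low positions at the same places in all 4 groups.

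Adjacent positions, which are the 2 strands of a CpG, were listed apart. Over 18 such pairs the median absolute difference within a library was 6.26 points, and over 458 pairs 2 to 100 bp apart it was 5.69 points. The 458 pairs include those of the unmethylated stretches in Olfr94 and Olfr1033, and the sets were not matched for level. Methylation of members at 80% to 95% had a median SD over libraries of 5.06 points, and positions of other genes in that range 5.54 points.

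Group means of the members were close to each other. Without chromosome 17 the mean was 79.0% ± 1.28 (SD, n = 8, lowest 76.4%, median 79.0%, highest 80.9%) in HEM at 13 months and 80.03% ± 0.424 (n = 4, 79.7% to 80.6%) in WT at 13 months. At 3 months it was 79.5% ± 1.03 (n = 4, 78.6% to 80.8%) in HEM and 79.0% ± 0.629 (n = 4, 78.2% to 79.6%) in WT. The HEM range overlapped the WT range at both ages, and HEM minus WT was -1.02 points at 13 months and 0.483 points at 3 months. Single libraries moved these differences by more than 1.5 times. Without replicate 8 of HEM the 13-month difference was -0.647 points. That library also had the lowest mean of all libraries over all positions outside chromosome 17, at 29.0%. The 3-month difference was 0.0718 points without replicate 2 of HEM, 0.775 without its replicate 3, 0.759 without its replicate 7 and 0.211 without replicate 3 of WT. WT libraries at 13 months did not overlap those at 3 months, with a lowest value of 79.7% against a highest of 79.6% and a mean difference of 0.991 points. In HEM the difference between 13 and 3 months was -0.516 points, in the other direction, and the ages overlapped. Without replicate 8 of HEM at 13 months this HEM difference was -0.138 points. Without replicate 2 of HEM at 3 months it was -0.105 points, and without replicate 3 it was -0.809 points.

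On chromosome 17 the 13-month groups had the higher means. The mean was 62.2% ± 1.37 (SD, n = 8, 60.4% to 65.1%) in HEM and 61.4% ± 1.44 (n = 4, 59.5% to 62.7%) in WT at 13 months. It was 59.5% ± 0.846 (n = 4, 58.2% to 59.96%) in HEM and 59.3% ± 0.540 (n = 4, 58.9% to 60.1%) in WT at 3 months. The HEM groups of the 2 ages did not overlap, with a difference of 2.73 points, and the WT groups overlapped, with a difference of 2.09 points. Most of both differences came from 1 position of Olfr91, described below. Over the other 36 positions, a choice made after the data were seen, the difference was 0.780 points in HEM and 0.469 points in WT, and the ages overlapped in both genotypes. The WT groups over all 37 positions no longer overlapped without replicate 6 at 13 months or without replicate 3 at 3 months, at differences of 2.73 and 2.35 points. The ages were deposited as separate sets of files, so age and library set cannot be told apart in any comparison between them.

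**Figure D4:**
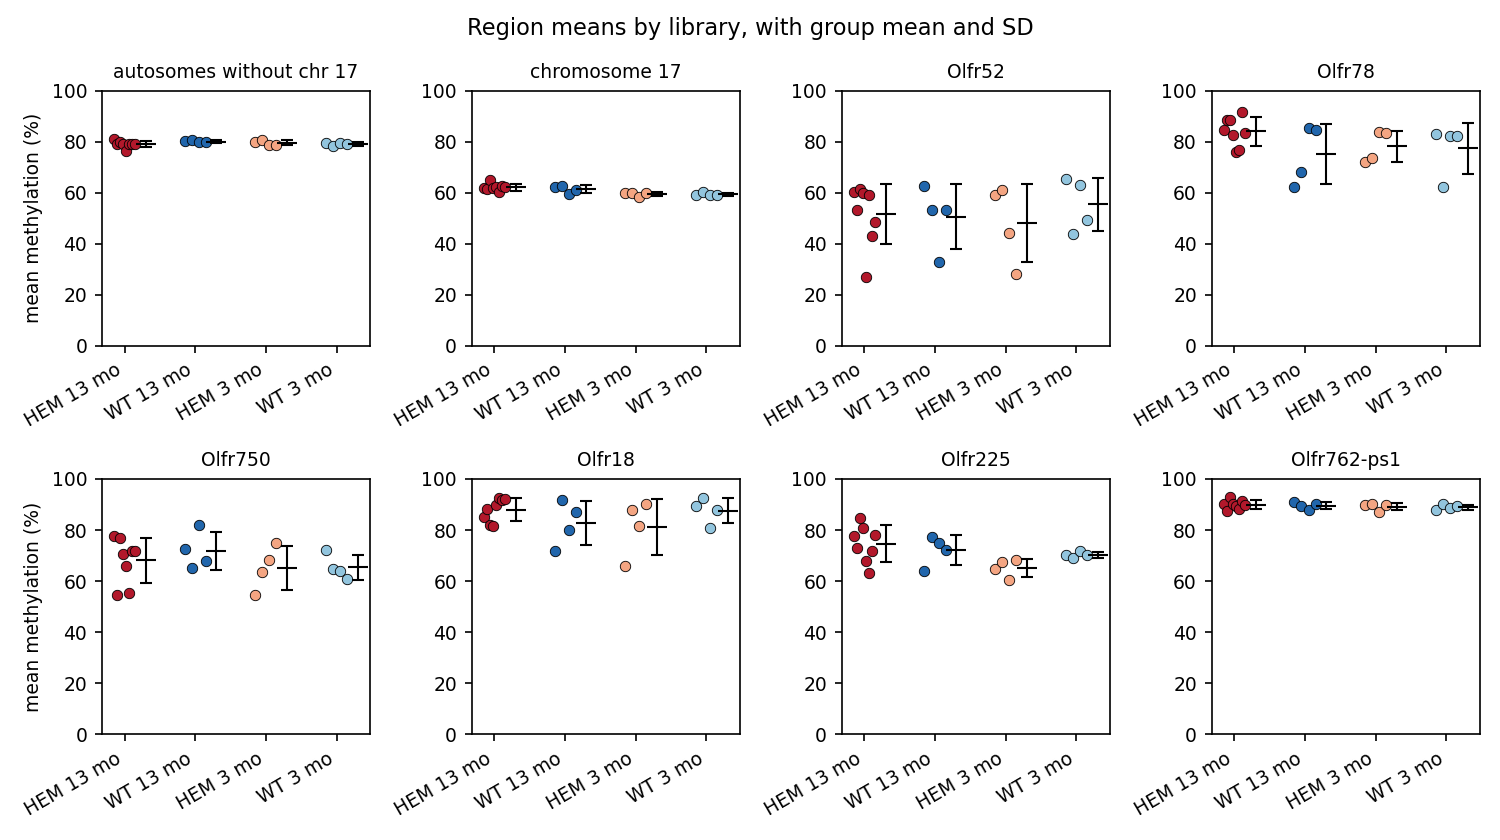
Mean methylation (percent, y axis) of each library by group (x axis) for members without chromosome 17, members of chromosome 17, and single genes. The genes are the 5 of largest SD over libraries among those with at least 3 positions, and Olfr762-ps1, which has the most positions. Bars are group mean and SD, and the groups overlap in the single genes, except HEM and WT at 3 months in Olfr225.

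Genotype at 13 months was compared first, to ask whether α-synuclein overexpression went with altered methylation in old mice. Among 268 members tested with limma on the log2 ratio of methylated to unmethylated percent, none was called at an adjusted p under 0.05 and a difference of at least 10 points, and over all 453891 positions the share called was 0.000881%. At an unadjusted p under 0.05 there were 14 members (5.22%), against 5.82% of all positions. The median difference between HEM and WT was -0.940 points over the members and -0.100 points over all positions. No olfactory receptor gene region was called among 45 tested, nor was any of 19448 regions (0%), and 3 regions had an unadjusted p under 0.05, a share of 6.67% against 4.05% of all regions.

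The members of smallest p in that comparison lay in Olfr71 and Olfr284. At position 43706301 of Olfr71 the HEM libraries ran from 87.3% to 92.8% and the 4 WT libraries stood at 94.3%, 100%, 93.9% and 97.6%. The groups did not overlap, with means of 89.8% and 96.4%, but the adjusted p in limma was 0.692. At position 98340625 of Olfr284 the means were 93.5% in HEM and 97.9% in WT and the groups overlapped (adjusted p = 0.769 in limma). The whole Olfr71 region, with 9 positions, stood at 83.6% in HEM and 86.9% in WT (adjusted p = 0.99996 in limma).

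Genotype at 3 months gave no call either. Of 291 members tested none passed, as none of 492283 positions did (0%), and 14 members (4.81%) had an unadjusted p under 0.05 in limma, against 4.53% of all positions. The median difference was 0.385 points over members and -0.0557 points over all positions. Of 50 gene regions tested 0 were called, as were 0% of 20186 regions, and 5 regions (10%) against 4.03% of all had an unadjusted p under 0.05 in limma. At position 39137356 of Olfr27, listed at 3 months only, the HEM libraries stood at 90.3%, 100%, 75.0% and 89.5% and all 4 WT libraries at 100% (adjusted p = 0.985 in limma). Thus 1 HEM library equalled the WT libraries.

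At position 78505284 of Olfr1358, within Gm47944, the 3-month HEM libraries stood at 93.5%, 99.0%, 89.5% and 95.05% and the WT libraries at 87.3%, 74.5%, 82.4% and 84.5%. The groups did not overlap, and the difference of 12.1 points had an adjusted p of 0.985 in limma. The same position stood at 88.6% in HEM and 95.2% in WT at 13 months, a difference in the other direction (adjusted p = 0.878 in limma). In Olfr1342 the 6 lower positions averaged 35.8% ± 6.49 (SD, n = 4) in HEM and 26.9% ± 2.99 (n = 4) in WT at 3 months, with ranges of 30.8% to 44.9% and 23.4% to 30.7% that did not overlap. The whole Olfr1342 region stood at 53.8% in HEM and 47.1% in WT at 3 months (unadjusted p = 0.00781, adjusted p = 0.9999 in limma). At 13 months the 6 lower positions averaged 24.4% in HEM and 27.8% in WT, in the other direction. Their 13-month ranges overlapped, at 14.5% to 38.6% and 25.4% to 32.2%.

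Between ages in WT, 0 of 262 members were called, with 0.0183% of all 442157 positions called. An unadjusted p under 0.05 in limma was reached by 11 members (4.20%) and by 4.79% of all positions. The median difference between 13 and 3 months was 1.01 points over members and 0.837 points over all positions. Among gene regions 0 of 44 members were called, with 0.00518% of all 19289 called, and 6 (13.6%) against 4.98% of all had an unadjusted p under 0.05 in limma. At the Olfr71 position the WT libraries stood at 80.3%, 87.1%, 88.7% and 84.9% at 3 months, all below the 13-month libraries, but the difference of 11.2 points had an adjusted p of 0.975 in limma.

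Between ages in HEM, 1 of 267 members was called, with 0.0305% of all 445659 positions called. At an unadjusted p under 0.05 in limma there were 22 members (8.24%) and 10.4% of all positions. The median difference was -0.211 points over members and 0.826 points over all positions. No region of 44 was called, as with 0% of 19316 regions, and 7 (15.9%) against 12.9% of all had an unadjusted p under 0.05 in limma. Beside the called member, the smallest p was at position 140176183 of Olfr523 on chromosome 7, where HEM libraries ran from 78.9% to 91.6% at 13 months and stood at 96.8%, 93.4%, 93.5% and 96.8% at 3 months. These groups did not overlap, and the difference of -8.24 points had an adjusted p of 0.308 in limma. The comparisons between ages share their libraries with the genotype comparisons, so the 5 sets of results are not independent.

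The called member was position 37130953 of Olfr91 on chromosome 17, which lies in the overlapping pseudogene Gm19807. In HEM at 13 months the libraries stood at 82.1%, 82.1%, 85.4%, 60.5%, 85.5%, 66.7%, 54.8% and 68.6%. In HEM at 3 months 1 library stood at 1.22% and the other 3 at 0%. The groups did not overlap, with means of 73.2% and 0.305%, and the difference of 72.9 points had an adjusted p of 3.00e-06 in limma.

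In WT the same position stood at 64.7%, 89.1%, 0% and 87.4% at 13 months and at 0% in all 4 libraries at 3 months. The 13-month WT library at 0% was replicate 6, and it equalled the 3-month libraries. The difference of 60.3 points was not called with it (adjusted p = 0.975 in limma) and was called without it, at 80.4 points (adjusted p = 0.000716 in limma). With the replicate number as a block, a fit that uses only the 3 numbers both ages hold, the HEM difference was 74.5 points and its adjusted p was 0.195 in limma. The interaction of genotype and age at this position was 12.6 points, with an adjusted p of 0.927 in limma.

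The other Olfr91 positions did not share the step. The nearest, 33 bp away at 37130986, ranged from 71.4% to 98.6% over all 20 libraries, and the 5 positions from 37105861 to 37106071 ranged in mean from 67.3% to 95.4%. Together these 6 positions averaged 86.2% ± 2.89 (SD, n = 8) in HEM and 85.1% ± 4.76 (n = 4) in WT at 13 months, and 85.2% ± 1.77 (n = 4) and 86.7% ± 1.86 (n = 4) at 3 months. The Olfr91 region as a whole, the called position included, stood at 73.0% at 3 months and 84.4% at 13 months in HEM (adjusted p = 0.137 in limma). The region tests between genotypes, which use every position listed at that age, gave no call for Olfr91 either. The cause of the step was not tested, and sequence differences between the animals were not examined.

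**Figure D5:**
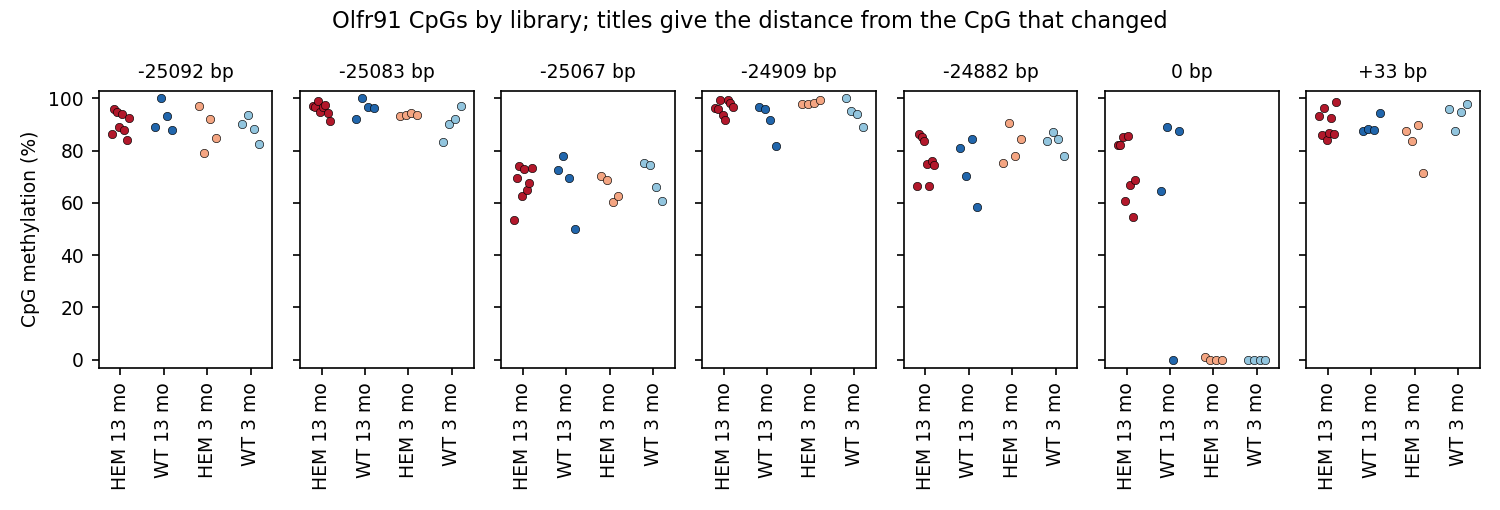
Methylation (percent, y axis) of each library by group (x axis) at the 7 listed positions of Olfr91, with the distance in bp from the called position as panel title. At distance 0 the 3-month libraries and 1 WT library at 13 months are at or near 0%, and the others lie between 54.8% and 89.1%.

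In the fit of all 20 libraries 0 of 268 members had a genotype by age interaction at an adjusted p under 0.05 in limma, with 0.000224% of all 446428 positions called. At an unadjusted p under 0.05 there were 16 members (5.97%) and 6.28% of all positions. The smallest p was again at the Olfr71 position, where the genotype difference at 13 months minus that at 3 months was -15.0 points (adjusted p = 0.633 in limma). At the Olfr1358 position it was -18.6 points (adjusted p = 0.741 in limma). Among regions 0 of 44 were called, as were 0% of 19309 regions, and 5 (11.4%) against 5.18% of all had an unadjusted p under 0.05 in limma.

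The genes of largest SD over libraries, among those with at least 3 positions, varied within groups. HEM and WT overlapped in them at both ages, except at 3 months in Olfr225. In Olfr52 on chromosome 2, with an SD of 11.7 points over 20 libraries, the 4 positions in its downstream flank gave region means from 27.1% to 61.5% in HEM at 13 months, with a median of 56.2%. The WT libraries at 13 months stood at 62.7%, 53.3%, 32.7% and 53.4%. At 3 months the HEM libraries stood at 58.9%, 60.9%, 44.4% and 28.0% and the WT libraries at 65.3%, 44.0%, 63.2% and 49.2%. Every group spanned more than 20 points and all overlapped.

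In Olfr78, a receptor gene of the class I locus that is also known to be expressed outside the nose, HEM libraries at 13 months ran from 76.0% to 91.6% (mean 84.0% ± 5.602, SD, n = 8). The WT libraries at that age stood at 62.2%, 68.2%, 85.5% and 84.6%. The 2 low WT libraries lay below all HEM libraries and the other 2 among them, and the difference of 8.91 points had an unadjusted p of 0.0943 in limma. At 3 months the HEM libraries stood at 72.2%, 73.8%, 83.6% and 83.3%, and the WT libraries at 82.9%, 62.1%, 82.1% and 82.1%.

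In Olfr750, whose 5 positions are marked in the window printed above, libraries ran from 54.5% to 77.9% in HEM and from 65.2% to 82.1% in WT at 13 months. At 3 months they ran from 54.4% to 74.9% and 60.8% to 72.4%. In Olfr18 on chromosome 9 the SD was 7.12 points and in Olfr225 on chromosome 11 it was 6.29 points. In Olfr225 the 3-month HEM libraries stood at 64.6%, 67.3%, 60.3% and 68.3% and the WT libraries at 70.2%, 68.9%, 71.8% and 70.2%. These groups did not overlap, but the difference of -5.16 points had an adjusted p of 0.9999 in limma, against an unadjusted p of 0.0190. At single positions the median range over 20 libraries was 20.7 points, 36 of 329 positions had a range under 10 points and 6 had a range over 60 points. Of those 6, 1 was the Olfr91 position, 3 were in Olfr52, and 1 each was in Olfr287 and Olfr632.

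Genes of olfactory signalling and receptor choice, such as Gnal and Adcy3 of the odorant cascade and Lhx2 and Ebf1 of receptor choice, were examined as a list of 22. In each comparison 18 of their regions were tested and 0 were called in limma, with 0.00518% of all regions called between ages in WT and 0% in each other comparison. Between ages 16 of the 18 were higher at 13 months in HEM and 15 in WT, shares to be read beside the 63.8% and 64.1% of all regions that were higher. The smallest unadjusted p in the list was 0.0227 in HEM and 0.0680 in WT. The median difference over the list between 13 and 3 months was 0.538 points in HEM and 0.519 points in WT, against 0.335 and 0.299 points over all regions tested, and for genotype it was -0.140 points at 13 months and -0.0656 points at 3 months.

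Facts of the whole series bear on these values as follows. Over all positions outside chromosome 17 the mean was 30.6%, with libraries from 29.0% to 31.8%. As regions, 10 of 12 microglial marker genes were measured and averaged 55.8% (50.3% to 59.8% over libraries), and 6 neuronal markers averaged 18.5%. Markers of vessels averaged 57.3%, those of the oligodendrocyte lineage 39.6% and those of astrocytes 39.1%. Methylation of a gene region does not measure its expression, so these values do not check the enrichment. The files give no read counts, and depth is therefore unknown.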

How the data were processed

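The authors deposited 1 table per library, with a value in percent for every listed CpG position and no read counts. Per the submitters' processing notes, Bowtie2, methylKit and the mm10 build were used, and no versions or coverage minimum are given in the sources used here. Depth is thus unknown, and intervals based on it are left out. Positions on the 2 strands were counted apart. Of listed positions in RefSeq promoter windows, 99.9% lay on a CG of the reference. A further 21 value columns in tables of a whole age have no sample names and were not used.

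Percentages were turned into log2((percent + 1) / (100 - percent + 1)) and fitted with limma 3.58.1 (R 4.3.3), over all autosomal and sex-chromosome positions whose mean in the compared libraries was 5% to 95%, with moderated variances and Benjamini-Hochberg adjustment. A call needed an adjusted p under 0.05 and 10 points, or 5 points for gene regions with at least 3 positions, and an interaction only the adjusted p. The counts that a logistic model would need were absent, so limma was used. Tests were checked on simulated data. Groups came from the labels, which do not state that replicates are separate animals beyond the series text, so p-values measure the spread between these libraries. Members and gene lists were chosen with earlier results of these data known. Named genes were those with a call, the 2 positions of smallest p per comparison, the 5 genes with the most positions, the 3 highest and 3 lowest means and 5 largest SDs among genes with at least 3 positions, and all genes on chromosome 17, which include Olfr754-ps1 with 1 position at 76.9%. Olfr269-ps1, Olfr287, Olfr632, the printed windows other than that of Olfr750, and genes named for overlap were chosen after their values were seen. Alternatives covered scale, offset, filters, strands, flanks, pseudogenes, chromosome 17, blocking on replicate number and leaving out single libraries.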

Additional observations from a re-analysis of the deposited data

Results flagged for a closer look

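Of 156 combinations of a measure and a group of 4 to 8 libraries, 13 (8.33%) had 1 library standing apart from the others by Dixon's criterion at 95%, where chance flags about 1 in 20. The measures share positions, so these are not 13 independent events, and no cause was tested.

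Over all members without chromosome 17, replicate 8 of HEM at 13 months was lowest at 76.4%, with the others from 78.9% to 80.9%. This was not particular to the members. That library was also the lowest of all libraries over all positions outside chromosome 17 (29.0%) and over all other annotated genes (23.7%). The same library was lowest, at 19.3%, in the chromosome 2 cluster that holds Olfr1033 and Olfr52 (others 26.2% to 30.7%). On chromosome 17, replicate 6 of HEM at 13 months was highest at 65.1% (others 60.4% to 62.6%), and replicate 3 of HEM at 3 months was lowest at 58.2% (others 59.86% to 59.96%).

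Among other clusters, replicate 7 of WT at 13 months stood at 56.8% in the chromosome 4 cluster of Olfr1342 (others 54.4% to 54.8%). On chromosome 9, replicate 13 of HEM at 13 months stood at 91.5% in the cluster from 18754692 to 20336094 (others 85.9% to 88.5%), and replicate 1 at 92.6% in the cluster from 37711348 to 40188094 (others 86.5% to 89.4%).

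Among single genes, Olfr78 stood at 62.1% in replicate 3 of WT at 3 months, with the others from 82.1% to 82.9%. Olfr1344 stood at 98.5% in replicate 1 of HEM at 13 months (others 92.5% to 94.96%), and Olfr1342 at 49.7% in replicate 1 of WT at 3 months (others 45.9% to 46.5%). In HEM at 3 months, Olfr284 stood at 93.9% in replicate 2 (others 92.3% to 92.5%), Olfr762-ps1 at 87.0% in replicate 3 (others 89.7% to 90.2%) and Olfr1300-ps1 at 91.0% in replicate 7 (others 95.6% to 96.5%).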

How the results depend on the processing

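The calls per comparison kept their count under the other scale, the offset of 5, the filters, averaged strands, other flanks and 1 position per region, with these exceptions. With the replicate number as a replicate block the 1 called member between ages in HEM became 0, although its difference was 74.5 points over the 3 shared numbers. Without chromosome 17 the count had to become 0, since the called position lies on that chromosome. Leaving out single libraries gave 0 to 1 called members between ages in WT, 1 only without replicate 6 at 13 months, 1 to 1 between ages in HEM, and 0 to 0 in the other comparisons and in all region comparisons.

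Nothing in the labels ties equal replicate numbers, and they were not treated as pairs, since not every correlation passed 0.1. Deviations of same-numbered libraries correlated at 0.103, 0.224 and 0.0480 between genotypes at 13 months, at 0.0505 and -0.111 at 3 months, and at 0.0274, -0.152 and -0.0155 between ages in HEM. At 13 months each of the 3 HEM libraries nonetheless correlated best with its own number, a hint from the data and not from the design, as did 1 of 3 between ages in HEM and 0 of 2 at 3 months. With the block, genotype calls were 0 at both ages. Between ages in WT and for the interaction no block was fitted.

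Means moved with the choice of positions. They follow in the order HEM and WT at 13 months, then HEM and WT at 3 months. Without chromosome 17 they were 81.8%, 82.6%, 82.3% and 81.7% without flanks, 74.2%, 74.7%, 74.2% and 73.9% with flanks of 5000 bp, 77.0%, 78.1%, 77.6% and 77.1% without symbols ending in ps, and 80.6%, 82.0%, 80.7% and 80.7% as means of genes. On chromosome 17 they were 56.1%, 55.1%, 53.1% and 53.5% without flanks, 68.6%, 68.9%, 67.7% and 67.7% with flanks of 5000 bp, 33.4%, 32.3%, 28.9% and 29.2% without symbols ending in ps, 58.5%, 57.8%, 55.5% and 55.3% with strands averaged, and 63.8%, 62.9%, 58.5% and 58.5% over all positions listed at an age. As means of genes, 3 of these moved beyond 1 SD, to 64.0% and 63.1% at 13 months and 57.6% in WT at 3 months. Without the called Olfr91 position, an alternative chosen after seeing the data, the 3-month means of chromosome 17 moved to 61.1% in HEM and 60.97% in WT, and the 13-month means stayed within 1 SD. Leaving out single libraries moved the group means without chromosome 17 to 78.7% to 79.4%, 79.8% to 80.1%, 79.1% to 79.8% and 78.9% to 79.3%, and those of chromosome 17 to 61.8% to 62.5%, 61.0% to 62.1%, 59.3% to 59.9% and 59.1% to 59.5%. Few positions per gene and 4 libraries in most groups limit what could be detected.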
